A study of Mus musculus with 30 samples.

Results

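The 10 genes described here are known for their expression in neurons that extend or sprout axons: Gap43, Basp1, Stmn2, Stmn4, Dpysl2, Dpysl3, Crmp1, Sox11, Klf7 and Tubb3. The group is a list of names, and all 10 were among the 16995 genes with values. RNA was sequenced from intermediate laminae of the cervical hemicord (C5/C6) denervated by the stroke, in adult female C57BL/6 mice. Stroke animals had a photothrombotic stroke of the right sensorimotor cortex and were studied 4, 7, 14, 28 or 42 days post injury (dpi). The control group (Ctrl in the labels, sham in the paper) had the same operation without illumination, and the labels name no transgene or mutant allele in any group. Values of 29 animals were used, 4 at 4 dpi and 5 in every other group, and each value came from the tissue of 1 animal. The stroke lies in the cortex, so the tissue holds spinal neurons, glia and vessels together with axons that come from the brain, but not the cell bodies of cortical neurons. An RNA difference in such tissue cannot tell fewer cells of a type from less RNA per cell.

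Growing axons end in a growth cone, where actin and microtubules are rebuilt while membrane is added. Gap43 and Basp1 are acylated proteins on the inner face of the growth cone membrane that bind acidic phospholipids and act on actin. Stathmins (Stmn2, Stmn4) bind tubulin dimers and regulate microtubule turnover, and collapsin response mediator proteins (Dpysl2, Dpysl3 and Crmp1) carry semaphorin signals to tubulin and actin. Sox11 and Klf7 are transcription factors that promote axon growth, and Tubb3 is the neuronal class III β-tubulin of axonal microtubules. These genes are high in the developing nervous system, fall in most mature neurons and rise again in peripheral neurons after axon injury. Several of them, such as Tubb3 and Dpysl2, stay expressed in adult neurons.

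The values are normalized CPM (reads of a gene relative to all reads) made by the authors and rounded to 0.1. Their sums per animal ran from 714597 to 2256910 while their medians stayed between 10.2 and 11.2, and read totals were not used here, so depth is unknown and the spread between animals is the only error. Compared with sham animals, in which residual 18S ribosomal RNA (Rn18s-rs5) had values of 30321 to 52929, the animals at 28 dpi ran from 44755 to 779160. It also varied in the other groups, from 18295 to 114026 at 4 dpi, 36202 to 116302 at 7 dpi, 32754 to 817779.7 at 14 dpi and 78737 to 457302 at 42 dpi, where all 5 animals were above every sham animal. The value of a gene also shifted with its length in some animals. The length slope is the slope of an animal's log2 values on log2 gene length, over genes with a mean value of at least 1. Values entered as deviations from each gene's mean in sham animals, so the sham group is the reference by construction. Sham animals had slopes from -0.06 to 0.06. At 28 dpi the slope was 0.0755 in animal A3-3, 0.0795 in A4-3 and 0.1011 in A4-4, above every sham animal, and 0.0044 in A3-1 and 0.0063 in A4-1. Defining markers of the tissue were present in all sham animals, with summed values of 1600 to 2110 for 4 neuronal genes, 3230 to 3650 for 5 astrocyte genes and 5910 to 8800 for 5 oligodendrocyte genes.

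All 10 genes are protein coding. On mm10, in the authors' positions, Gap43 (ENSMUSG00000047261) lies on chromosome 16 at 42248442 to 42340651 and Basp1 (ENSMUSG00000045763) on chromosome 15 at 25363285 to 25413764. Stmn2 (ENSMUSG00000027500) lies on chromosome 3 at 8509360 to 8561606, and Stmn4 and Dpysl2 both lie on chromosome 14, at 66344296 to 66361680 and 66802864 to 66868688. Crmp1 is on chromosome 5 at 37241940 to 37292133, Sox11 on chromosome 12 at 27334264 to 27342574, Klf7 on chromosome 1 at 64029447 to 64122282 and Tubb3 on chromosome 8 at 123411424 to 123422015. Their exons together cover between 1.523 kb (Gap43) and 8.311 kb (Sox11), so that 4 members are short (Gap43, Tubb3 with 1.868 kb, Stmn4 with 1.916 kb, Basp1 with 2.009 kb) and the other 6 lie between 4.52 kb (Dpysl2) and 8.311 kb. By sequence, the members were almost free of shared reads. The exception was Klf7, with 38.7% of its 31-base words in the opposite-strand noncoding gene Gm26649, and the library kit does not mark strand, so reads of both cannot be told apart. Tubb3 shared 2.3% of its words with the tubulin gene Tubb6 and overlaps the coding gene Gm20388 on the same strand. Crmp1 overlaps Evc on the opposite strand.

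Promoter sequences (300 bases around the start of transcription, RefSeq, GRCm38.p6) were found for 5 of the 10 genes: Basp1, Crmp1 (with 2 starts), Klf7, Sox11 and Tubb3. The pair below is shown because Basp1 and Klf7 differed from sham animals in opposite directions at 28 dpi, both past the threshold of the test. Capitals mark the GC box GGGCGG, searched on both strands, the letters bound by Sp1 and Klf family factors.
Basp1, chr15:25413715-25414014, minus strand: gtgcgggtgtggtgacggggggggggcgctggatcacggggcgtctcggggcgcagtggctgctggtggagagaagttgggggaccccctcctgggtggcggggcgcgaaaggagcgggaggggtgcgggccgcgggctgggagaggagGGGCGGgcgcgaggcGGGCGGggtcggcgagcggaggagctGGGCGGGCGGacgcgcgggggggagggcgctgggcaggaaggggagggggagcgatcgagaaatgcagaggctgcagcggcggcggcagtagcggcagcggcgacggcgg
Klf7, chr1:64121340-64121639, minus strand: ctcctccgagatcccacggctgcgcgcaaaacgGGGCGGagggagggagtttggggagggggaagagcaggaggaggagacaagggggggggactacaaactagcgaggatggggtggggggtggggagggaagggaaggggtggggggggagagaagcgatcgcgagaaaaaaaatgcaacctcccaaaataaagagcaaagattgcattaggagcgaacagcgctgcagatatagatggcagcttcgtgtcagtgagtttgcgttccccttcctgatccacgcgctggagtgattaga
The promoter of Basp1 was 78% G or C and held 4 GC boxes, 2 of which overlap. The promoter of Klf7 was 58.3% G or C and held 1. The median of the 32851 promoters in the table was 52.7% G or C. All 6 member promoters held a GC box, as did 35.7% of all promoters. The CACCC box (letters CACCC) was in 5 of the 6 and in 57.5% of all, the E-box (CANNTG) in 2 of the 6 and in 72.3% of all, the CCAAT box (CCAAT) in 2 of the 6 and in 37.4% of all, and the TATA box (TATAAA) in 0 of the 6 and in 13.6% of all. No searched motif contains another whole, but neighbouring matches can share letters, and a match is a description of letters, not a binding site.

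Levels were compared between members per kb of exon, counted over all transcripts of a gene together. For Crmp1 this length was 7.046 kb and the longest transcript had 3051 bases. For Stmn2 it was 5.602 kb and the longest transcript had 3413 bases. Levels, order and overlaps between members depend on this choice of length. In the sham group Tubb3 was highest, with 178 ± 28.2 CPM per kb (SD, n = 5), followed by Dpysl2 with 109 ± 10.1 CPM per kb. Basp1 (28.4 ± 4.08), Gap43 (28.4 ± 5.75) and Stmn2 (26.3 ± 5.22 CPM per kb) formed the next level, and their ranges overlapped. Stmn4 (15.1 ± 1.86) and Dpysl3 (14.4 ± 1.31 CPM per kb) overlapped each other, as did Crmp1 (3.74 ± 0.219) and Klf7 (3.46 ± 0.472 CPM per kb). Sox11 was lowest, with 0.717 ± 0.0819 CPM per kb, and its 5 sham values of 4.9 to 6.6 CPM were below those of every other member. Between these levels the ranges of neighbours in the order did not overlap on this scale, and lengths of single transcripts were not used. All 10 RNAs had values above 0 in all 29 animals, and on the scale of CPM per kb in sham animals Sox11 lay below all other members and Klf7 overlapped Crmp1.

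To ask whether these genes differ from sham animals at any time after stroke, log2(value + 0.5) was fitted with limma over the 6 groups, with Benjamini-Hochberg adjustment over 16995 genes. A gene was called when its adjusted p was under 0.05. No member was called at 4 dpi, where 0.106% of all genes were called, at 7 dpi (0.0294% of all genes), at 14 dpi (0.00588%) or at 42 dpi (0.0235%). At an unadjusted limma p under 0.05 the counts were 0 members at 4 dpi and at 7 dpi, 2 members at 14 dpi and 1 at 42 dpi, where 5.14%, 5.84%, 11.6% and 14.8% of all genes passed. At 28 dpi 3 of 10 members were called, Gap43 and Basp1 lower and Klf7 higher, and 24.9% of all genes were called there. Gap43 (-0.59) lay just past a fold of 1.5 (0.585 on the log2 scale), and 4.64% of all genes were called and past this fold at 28 dpi. This is a smaller limit than the one the study's methods state on a log scale, and Gap43 lay under it with the length trend removed (-0.49), with 18S ribosomal RNA as a covariate (-0.43) and in fits without 1 animal (up to -0.50). Over the 6 groups together, the moderated F test called 4 members (Gap43, Basp1, Klf7 and Tubb3) and 31.6% of all genes. The share of members called at 28 dpi was close to that of all genes. Markers of cell types moved at the same time. Of 5 oligodendrocyte genes 3 fell and 0 rose (for example Mog, -0.44), and their summed values were 4250 to 6260 at 28 dpi. Of 5 astrocyte genes 3 fell (Aqp4, Aldh1l1 and Aldoc) and Slc1a2 rose, with sums of 3510 to 3830. Of 4 neuronal genes Snap25 and Elavl4 fell, with sums of 1320 to 1780. Of 4 oligodendrocyte precursor genes Gpr17 fell (-0.34) and 0 rose. Of 4 microglia genes Cx3cr1 rose (0.34) and 0 fell, with a median of 0.04 over the list, and of 3 endothelial genes Flt1 rose (0.36) and 0 fell. All 4 genes of ribosomal RNA and library quality were called higher, with a median log2 fold change of 2.71. The part of these cell types and of library quality in the members' values was not tested beyond the alternatives given with each member.

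**Figure D1:**
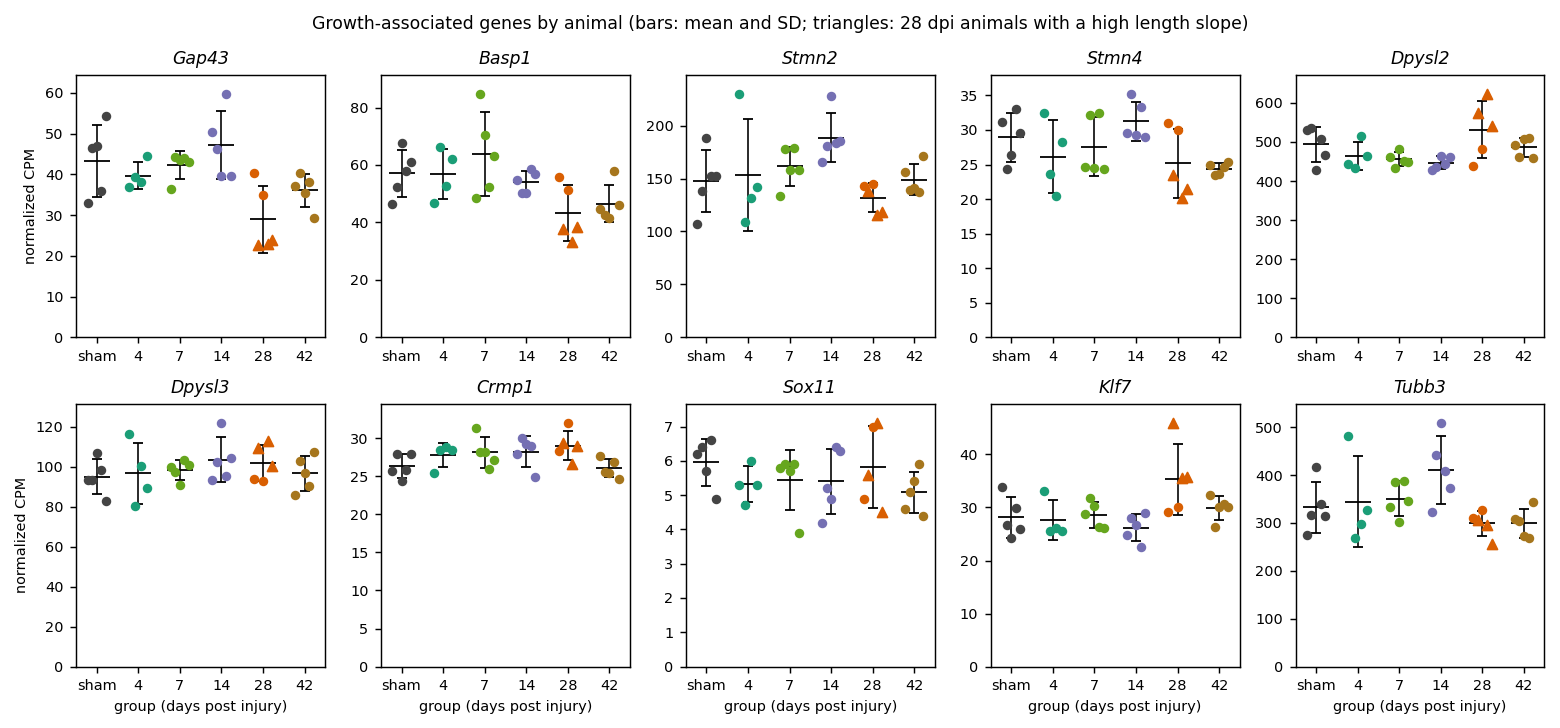
Normalized CPM (y axis, from 0) of the 10 genes in each of 29 animals by group (x axis: sham and days post injury). Points are animals, bars the mean and SD, and triangles the 3 animals at 28 dpi whose length slope lay above every sham animal. For Gap43 the triangles lie at 22.7 to 23.8, below all sham animals (32.9 to 54.2), while the other 2 animals at 28 dpi had 34.8 and 40.4.

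Gap43, the growth-associated protein for which the group is named, fell at 28 dpi. Its values in sham animals were 32.9, 35.8, 46.4, 47.0 and 54.2 CPM. At 28 dpi they were 22.7, 23.0, 23.8, 34.8 and 40.4 CPM, so that 3 of 5 animals were below every sham animal and the other 2 lay within the sham range. The mean was 28.9 ± 8.16 CPM (SD, n = 5) against 43.3 ± 8.75 in sham animals. The log2 fold change was -0.59 (SE 0.14, limma, adjusted p = 0.00463), and the exact two-sided permutation test gave p = 0.0397 before adjustment, where the smallest p that 5 against 5 animals allow is 0.00794. The earlier groups stayed near sham animals, with means of 39.6 ± 3.34 CPM at 4 dpi (n = 4), 42.3 ± 3.32 at 7 dpi and 47.1 ± 8.37 at 14 dpi (n = 5 each). At 42 dpi the values were 29.3, 35.5, 37.1, 38.0 and 40.3 CPM, and 1 of 5 lay below the sham range (log2 fold change -0.24, limma, adjusted p = 0.440). The 3 low animals at 28 dpi are those with the high length slopes, and without them the log2 fold change was -0.18 (limma, adjusted p = 0.60). The part of the length shift in this result was not tested apart from the alternatives given here: with the length trend removed from every animal the log2 fold change was -0.49 (limma, adjusted p = 0.00377), and with 18S ribosomal RNA as a covariate -0.43 (limma, adjusted p = 0.146).

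Basp1, which shares the membrane-bound, calmodulin-regulated chemistry of Gap43, was lower at 28 dpi as well. Sham animals had 46.3, 52.5, 58.0, 61.1 and 67.8 CPM. Animals at 28 dpi had 33.1, 37.6, 38.5, 51.3 and 55.8 CPM, and again the 3 animals with the high length slopes were below every sham animal and the others were not. The log2 fold change was -0.41 (SE 0.14, limma, adjusted p = 0.0282, exact permutation p = 0.0556). It was -0.32 with the length trend removed (limma, adjusted p = 0.0542), -0.35 with the 18S covariate (limma, adjusted p = 0.228) and -0.08 without the 3 animals (limma, adjusted p = 0.856). At 42 dpi 4 of 5 animals (41.7, 42.5, 44.6 and 46.1 CPM) lay below the lowest sham animal and 1 had 57.9 CPM, which gave a log2 fold change of -0.29 (limma, unadjusted p = 0.0422, adjusted p = 0.317, exact permutation p = 0.0476). At 7 dpi Basp1 had its widest spread, from 48.6 to 84.7 CPM, with a mean of 63.8 ± 14.5 CPM.

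Stmn2 and Stmn4 did not pass the test compared with sham animals at any time. Stmn2, which is also a marker of axon maintenance in motor neurons, had 107.1, 137.9, 151.9, 152.1 and 188.2 CPM in sham animals and 166.0, 180.7, 183.4, 185.1 and 228.3 CPM at 14 dpi. The groups overlapped in part, with 1 of 5 animals above every sham animal, and the log2 fold change was 0.37 (SE 0.14, limma, unadjusted p = 0.0126, adjusted p = 0.392, exact permutation p = 0.0397). At 28 dpi Stmn2 had 115.5 to 145.0 CPM, within the sham range (log2 fold change -0.14, limma, adjusted p = 0.471). Stmn4 had 24.3 to 33.1 CPM in sham animals, 29 to 35.2 CPM at 14 dpi and 20.1, 21.4, 23.5, 30 and 31 CPM at 28 dpi, where the log2 fold change was -0.21 (limma, adjusted p = 0.196). At 42 dpi its 5 animals lay close together, from 23.5 to 25.3 CPM, and the log2 fold change was -0.23 (limma, adjusted p = 0.366, exact permutation p = 0.0317).

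Tubb3, the tubulin often used as a neuronal marker, was not called compared with sham animals at any time. Sham animals had 275.5, 314.0, 315.9, 339.6 and 417.3 CPM, and animals at 14 dpi had 322.1, 373.4, 407.5, 441.9 and 508.3 CPM, 2 of them above the sham range. The log2 fold change at 14 dpi was 0.30 (SE 0.13, limma, unadjusted p = 0.0227, adjusted p = 0.393, exact permutation p = 0.0794). At 28 dpi the values ran from 256.8 to 326.4 CPM and at 42 dpi from 268.6 to 342.8 CPM, with log2 fold changes of -0.14 at both times (limma, adjusted p = 0.413 and 0.644). The overlapping gene Gm20388 was not called at 14 dpi either (log2 fold change 0.61, limma, adjusted p = 0.544).

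Dpysl2, Dpysl3 and Crmp1, the collapsin response mediator proteins among the members, were not called compared with sham animals at any time. Dpysl2 had 427.8 to 535.8 CPM in sham animals and 439.2, 482.6, 539.8, 573.0 and 622.7 CPM at 28 dpi, where 3 of 5 animals were above every sham animal (log2 fold change 0.10, limma, adjusted p = 0.328). Its means at 4, 7 and 14 dpi were 464 ± 36.5, 455 ± 17.9 and 447 ± 16.2 CPM against 494 ± 45.5 in sham animals. Dpysl3 had group means between 95.1 ± 8.63 CPM (sham) and 104 ± 11.3 CPM (14 dpi), and no comparison passed the test. Crmp1 had 24.4 to 28.0 CPM in sham animals and 26.6 to 32.0 CPM at 28 dpi, with 4 of 5 animals above the sham range (log2 fold change 0.14, 95% interval 0.01 to 0.27, limma, adjusted p = 0.112, exact permutation p = 0.0397). Evc, on the opposite strand of Crmp1, had a log2 fold change of 0.25 at 28 dpi (limma, adjusted p = 0.0638). For all 3 genes the 95% intervals of the difference from sham animals stayed within -0.29 and 0.30 on the log2 scale at each of the 5 times.

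Of the transcription factors, Klf7 rose at 28 dpi and Sox11 did not pass the test at any time. Klf7, a Krüppel-like factor that promotes axon growth, had 24.2, 25.9, 26.7, 29.9 and 33.9 CPM in sham animals and 29.1, 30, 35.6, 35.8 and 45.9 CPM at 28 dpi. The 3 animals with the high length slopes were above every sham animal, and the other 2 were within the sham range. The log2 fold change was 0.31 (SE 0.10, limma, adjusted p = 0.0282, exact permutation p = 0.0556). It was 0.24 with the length trend removed (limma, adjusted p = 0.0749), 0.21 with the 18S covariate (limma, adjusted p = 0.337) and 0.08 without the 3 animals (limma, adjusted p = 0.793). When all animals were rescaled to 1 common sum, which moved the median of all genes at 28 dpi by -0.73 on the log2 scale, its direction turned to -0.46, above that median. Sox11, a factor of immature and regenerating neurons, had 4.9 to 6.6 CPM in sham animals and group means between 5.08 ± 0.606 CPM (42 dpi) and 5.82 ± 1.19 CPM (28 dpi) after stroke. The rounding step of 0.1 is coarser relative to the value here than for any other member, and the 95% interval at 28 dpi ran from -0.32 to 0.22 on the log2 scale.

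**Figure D2:**
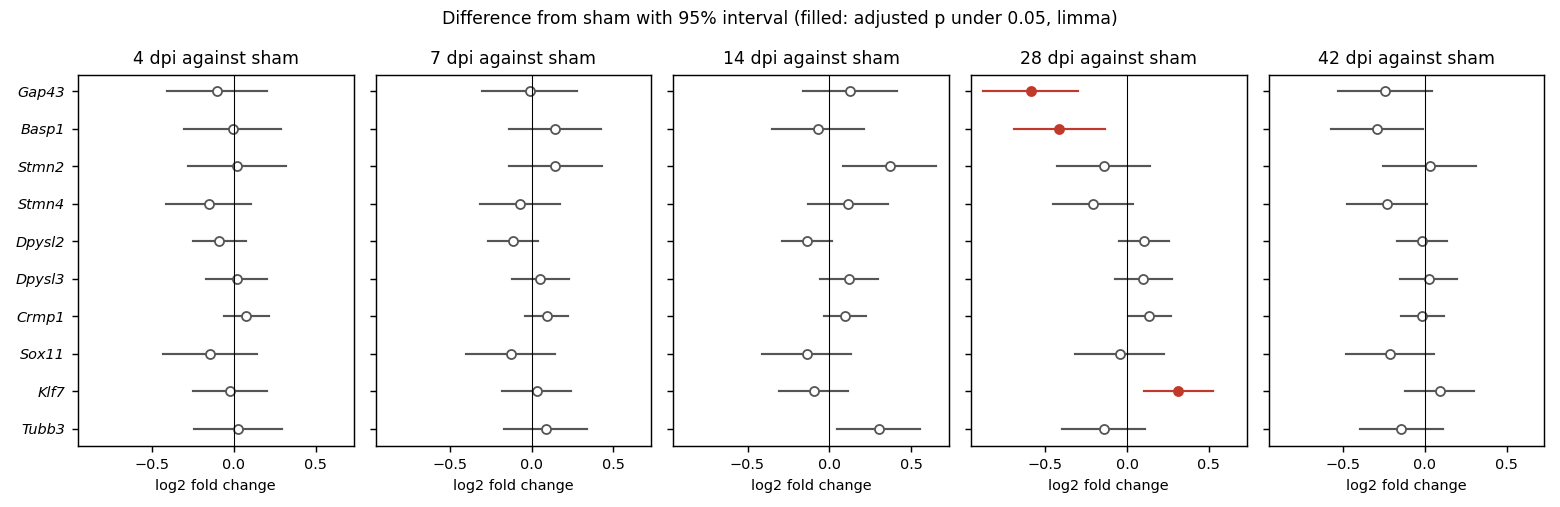
Difference of each gene (y axis) from sham animals as log2 fold change of value + 0.5 (x axis) at each of the 5 times after stroke, with 95% intervals from limma. Filled points have an adjusted p under 0.05. Only Gap43 (-0.59), Basp1 (-0.41) and Klf7 (0.31) at 28 dpi are filled.

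Successive time points were compared in the same fit. From 4 to 7 dpi and from 7 to 14 dpi 0 members were called, as were 0% of all genes at both steps, and 0 members had an unadjusted limma p under 0.05. From 14 to 28 dpi 7 of 10 members were called, where 43% of all genes were called. Gap43 (log2 fold change -0.72), Stmn2 (-0.51), Tubb3 (-0.44), Basp1 (-0.35) and Stmn4 (-0.32) were lower at 28 than at 14 dpi, and Klf7 (0.41) and Dpysl2 (0.24) were higher, with limma adjusted p between 0.000224 for Gap43 and 0.0422 for Basp1. For Stmn2 all 5 animals at 28 dpi lay below all 5 at 14 dpi, and for Klf7 all 5 lay above them. Such a lack of overlap was seen for 22% of all genes between these times. Dpysl3, Crmp1 and Sox11 were not called. From 28 to 42 dpi 0 members were called, where 1.94% of all genes were called, and Gap43 (0.35, unadjusted p = 0.0202), Crmp1 (-0.15, unadjusted p = 0.0238) and Klf7 (-0.22, unadjusted p = 0.0415) had an unadjusted limma p under 0.05. The comparisons with sham animals and between times share groups and are not independent of each other. Without the 3 animals with the high length slopes 0 members were called from 14 to 28 dpi, where 7.61% of all genes still were, with 2 animals left at 28 dpi. The log2 fold changes were then -0.38 for Stmn2, -0.35 for Tubb3, -0.31 for Gap43 and 0.18 for Klf7, and -0.01 for Basp1, -0.03 for Stmn4 and 0.04 for Dpysl2. With the length trend removed, Tubb3 (-0.26, limma, adjusted p = 0.0675), Basp1 (-0.17, limma, adjusted p = 0.288) and Stmn4 (-0.14, limma, adjusted p = 0.293) lost their calls.

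Both members that fell at 28 dpi compared with sham animals are short genes, and Klf7, which rose, is a long one. The Spearman correlation between exon length and the log2 fold change over the 10 members was 0.782 at 28 dpi and 0.0909, -0.103, -0.503 and 0.588 at 4, 7, 14 and 42 dpi, as a description of genes that share their libraries. Over all genes with a mean value of at least 1, the median log2 fold change at 28 dpi went from -0.17 for genes of up to 2.1 kb to -0.11 for those of up to 4 kb, -0.02 for those of up to 6 kb and 0.08 for longer ones. Of the short members, Gap43, Basp1 and Stmn4 (-0.21) lay below the median of their length class and Tubb3 (-0.14) above it. Of those over 6 kb, Klf7, Crmp1 (0.14) and Dpysl3 (0.10) lay above theirs and Sox11 (-0.05) below. Stmn2 (-0.14) lay below and Dpysl2 (0.10) above the median of their class. Called members were picked for large changes, so their place is no test of the length shift. Within 28 dpi, 5 members (Gap43, Basp1, Stmn2, Stmn4 and Tubb3) were lower in all 3 animals with the high length slopes than in the other 2, 3 members (Dpysl2, Dpysl3 and Klf7) were higher in all of them, and Crmp1 and Sox11 overlapped. The sample titles hold a number after the letter A, read here as a unit number, and name no batch. All 3 of these animals and the other 2 carried number 3 or 4. Apart from 3, which 28 and 42 dpi share, no number occurred in more than a single group. Number and time can therefore hardly be told apart.

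**Figure D3:**
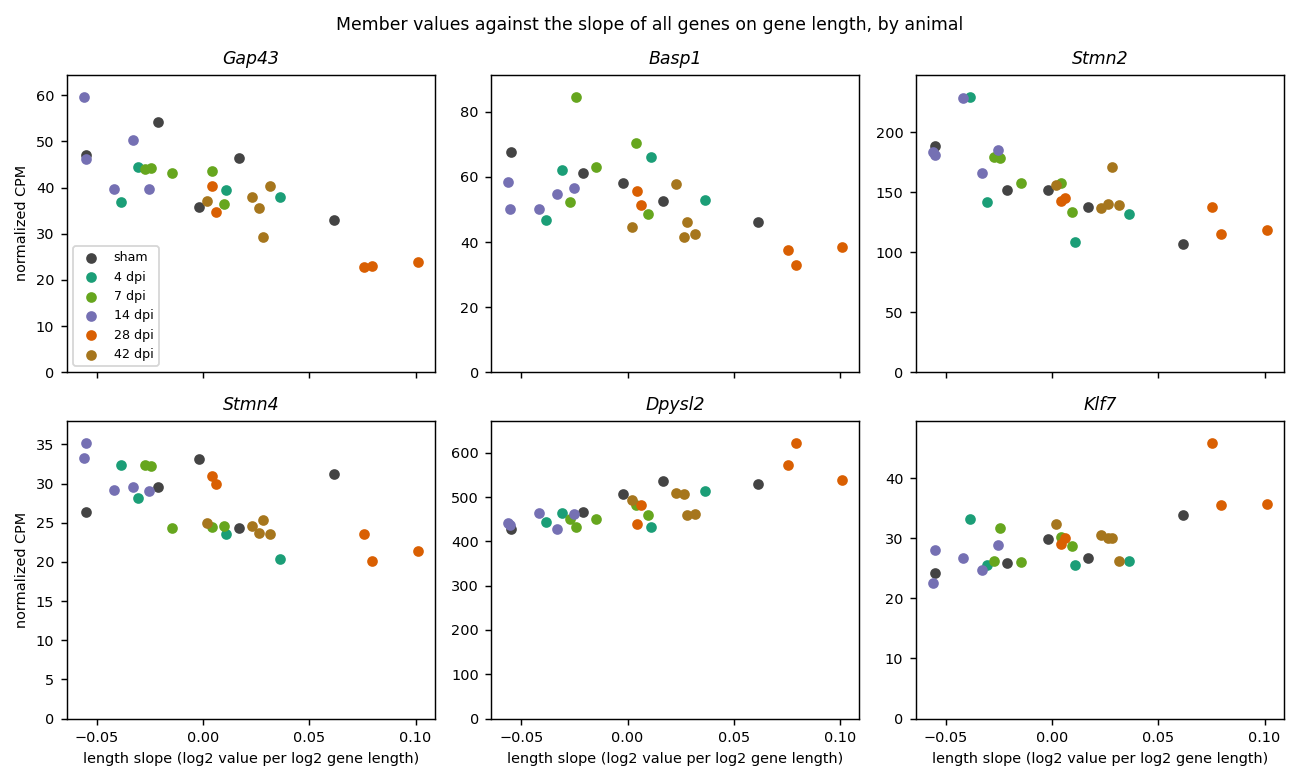
Normalized CPM (y axis, from 0) of 6 members against the length slope of each of 29 animals (x axis, log2 value per log2 gene length), with groups in colour. The 3 animals at 28 dpi with slopes of 0.0755 to 0.1011 have the lowest Gap43 values (22.7 to 23.8 CPM) and the highest Dpysl2 values (539.8 to 622.7 CPM).

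Relations with the length slope were then computed within groups, as deviations from the group means over 29 animals, together with 18S ribosomal RNA, a mature neuron score (mean z-score of 13 genes) and the summed motor neuron markers, 40 relations in all with adjustment over them. Stmn2 (Pearson's r = -0.689, Spearman's rho = -0.692, permutation adjusted p = 0.00296 and 0.00307), Tubb3 (r = -0.635, rho = -0.643), Gap43 (r = -0.675, rho = -0.646) and Stmn4 (r = -0.613, rho = -0.667) fell with the length slope, and Dpysl2 rose with it (r = 0.722, rho = 0.655), with permutation adjusted p between 0.0028 and 0.0337 for the 5 genes. Then the 2 animals whose slopes lay farthest from the median after subtraction of group means were left out. They were chosen by this deviation and not by the slope itself. This gave r of -0.575 for Stmn2, -0.543 for Tubb3, -0.641 for Gap43, -0.87 for Stmn4 and 0.672 for Dpysl2. Over the 24 animals outside 28 dpi, Stmn2 (r = -0.726) and Tubb3 (r = -0.666) kept a permutation adjusted p under 0.05 (0.0138 for both). For the other 3 r was 0.655 (Dpysl2, permutation adjusted p = 0.076), -0.501 (Gap43, permutation adjusted p = 0.155) and -0.433 (Stmn4, permutation adjusted p = 0.325). For 18S ribosomal RNA within groups r ran from -0.281 to 0.27 over the 10 members, and 0 of these 10 relations had an unadjusted permutation p under 0.05.

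**Figure D4:**
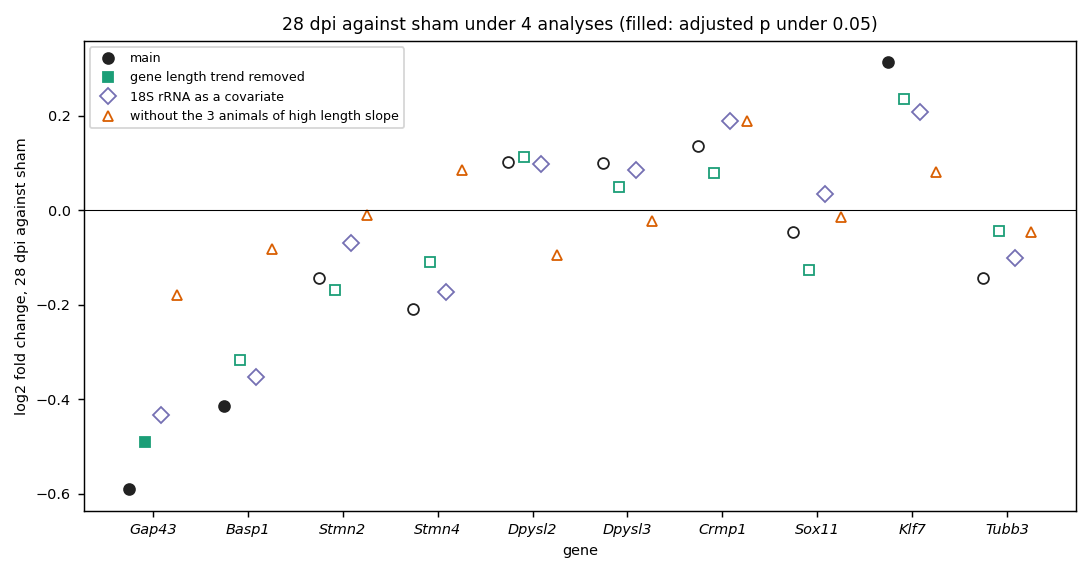
Log2 fold change at 28 dpi against sham animals (y axis) for each gene (x axis) in 4 analyses: all animals, with the gene length trend removed, with 18S ribosomal RNA as a covariate, and without the 3 animals with the high length slopes. Filled symbols have an adjusted p under 0.05, which holds for Gap43 in the first 2 analyses and for Basp1 and Klf7 in the first.

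The members did not vary as 1 group. Of 45 pairs, 7 had a permutation adjusted p under 0.05 for Pearson's r within groups over 29 animals, 3 of them positive and 4 negative, and for 3 pairs Spearman's rho passed as well. Stmn2 and Tubb3 were the closest pair (r = 0.891, rho = 0.847, permutation adjusted p = 0.00045 for both, the smallest that 100000 permutations and 45 pairs allow). Leaving out the 2 animals whose deviations of the first named gene lay farthest from the median gave r = 0.844. Gap43 and Basp1 rose and fell together (r = 0.618, rho = 0.60, permutation adjusted p = 0.0156 and 0.0351), with r = 0.512 without 2 animals. Gap43 and Klf7 went in opposite directions (r = -0.73, rho = -0.718, permutation adjusted p = 0.0054 and 0.00743), with r = -0.655 without 2 animals. Outside 28 dpi, over 24 animals, r was 0.899 for Stmn2 and Tubb3 (permutation adjusted p = 0.00045), -0.655 for Gap43 and Klf7 (p = 0.0413 by the same permutation test) and 0.429 for Gap43 and Basp1 (p = 0.197 likewise). Dpysl3 followed Tubb3 (r = 0.661, rho = 0.531, permutation adjusted p = 0.0231 and 0.069) and ran against Gap43 (r = -0.533) and Basp1 (r = -0.499).

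**Figure D5:**
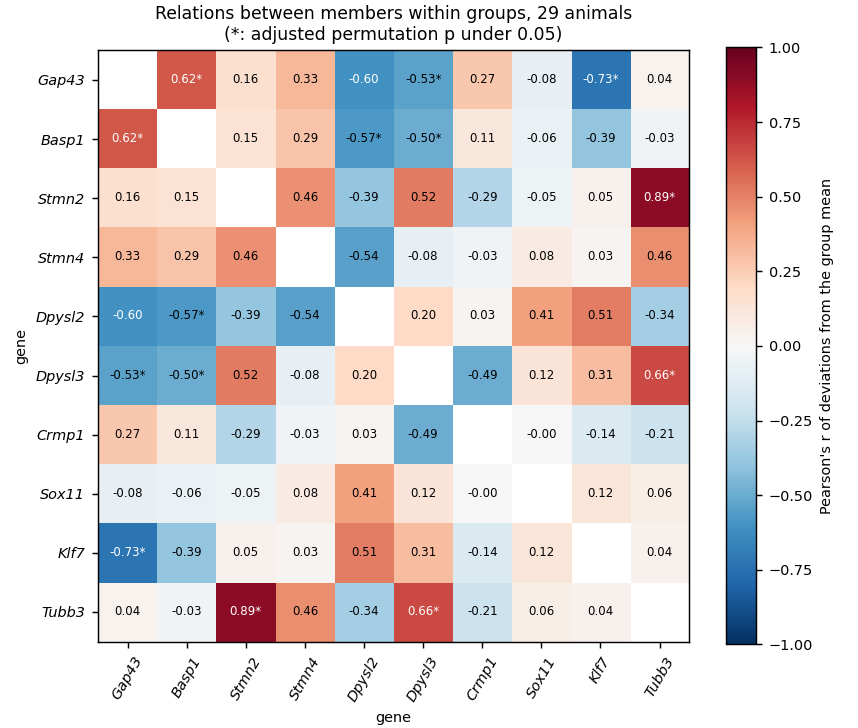
Pearson's r between members (both axes) of the deviations from the group mean of log2(value + 0.5), over 29 animals, on a colour scale from -1 to 1. Stars mark the 7 pairs with a permutation adjusted p under 0.05, and the strongest are Stmn2 with Tubb3 (0.891) and Gap43 with Klf7 (-0.73).

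Stmn2, Tubb3 and Dpysl3 also varied with a sum of motor neuron markers. The summed value of the motor neuron markers Chat, Isl1, Mnx1 and Slc5a7 ran from 25.8 to 288 CPM over the animals, with medians of 104 in sham animals, 152 at 14 dpi and 110 at 28 dpi, and none of the 4 genes was called at any of these times. Slc5a7 and Chat carried most of this sum (sham means of 97.2 and 23 CPM, against 1.62 for Mnx1 and 1.38 for Isl1). Whether the sum follows motor neuron content was not tested. Within groups this sum was related to Dpysl3 (r = 0.831, rho = 0.755, permutation adjusted p = 0.0002 and 0.001), Tubb3 (r = 0.761, rho = 0.629, permutation adjusted p = 0.0028 and 0.0129) and Stmn2 (r = 0.668, rho = 0.494, permutation adjusted p = 0.019 and 0.0633). Then the 2 animals whose log2 sums lay farthest from the median after subtraction of group means were left out. This gave r of 0.748 for Dpysl3, 0.626 for Tubb3 and 0.435 for Stmn2. Outside 28 dpi r was 0.83, 0.811 and 0.738. Gap43 went the other way (r = -0.457, rho = -0.466, permutation adjusted p = 0.019 and 0.0544). The animal with the highest Stmn2 and the second highest Tubb3 value (229.8 and 481.8 CPM, A10-1 at 4 dpi) had a marker sum of 245 CPM, and the highest sum (288 CPM, A5-4 at 14 dpi) stood beside 228.3 CPM of Stmn2 and 508.3 CPM of Tubb3. The part of motor neuron content in the 14 dpi values of Stmn2 and Tubb3 was not tested. With the mature neuron score, Stmn2 (r = 0.817) and Tubb3 (r = 0.667) were related as well (permutation adjusted p under 0.05 for r and rho), and the other 8 members were not called.

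Other genes of axon growth were counted by list at 28 dpi against sham animals, beside 24.9% of all genes called and a median log2 fold change of all genes near 0 (-0.00481). Of 14 paralogues and relatives of the members (growth-associated protein families), 2 rose and 5 fell, with a median log2 fold change of -0.20. Marcksl1 (-0.64, limma, adjusted p = 0.00312), a membrane-bound actin regulator like Basp1, and Stmn1 (-0.46, limma, adjusted p = 0.00237), the ubiquitous stathmin, fell, and Tubb4a (0.50, limma, adjusted p = 0.00359), a tubulin of myelinating cells and axons, and Dpysl5 (0.40, limma, adjusted p = 0.00404), a further collapsin response mediator protein, rose. Of 11 growth cone and axon cytoskeleton genes, 4 rose and 1 fell, with a median of 0.0034. With the length trend removed 1 rose and 2 fell (23.5% of all genes called). With quantile normalization 2 rose and 1 fell (22.7% of all genes). The microtubule-binding proteins Dcx (0.46, limma, adjusted p = 0.0164) and Map1b (0.38, limma, adjusted p = 0.0279) and the adhesion molecule L1cam (0.25, limma, adjusted p = 0.0077) rose, and Gpm6a (-0.37, limma, adjusted p = 0.00238), a neuronal membrane glycoprotein, fell. With the length trend removed the long genes Dcx (12.6 kb, 0.32, limma, adjusted p = 0.063) and Map1b (15.8 kb, 0.20, limma, adjusted p = 0.175) lost their calls. L1cam (0.19, limma, adjusted p = 0.0201) and Gpm6a (-0.32, limma, adjusted p = 0.00537) kept theirs. Of 14 measured regeneration-associated genes 0 rose and 2 fell, Cap2 (-0.24, limma, adjusted p = 0.0168), an actin-binding protein, and the retinoic acid receptor Rarb (-0.27, limma, adjusted p = 0.041), while the injury factors Atf3 (-0.27) and Jun (-0.05) were not called.

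Of 6 brakes on axon growth, Tsc2 (0.30, limma, adjusted p = 0.00673), an inhibitor of mTOR signalling, rose and Klf9 (-0.25, limma, adjusted p = 0.0201), a growth-suppressing Krüppel-like factor, fell. Of 13 mature neuron genes 0 rose and 3 fell, Snap25 (-0.30), Uchl1 (-0.30) and Elavl4 (-0.19), with a median of -0.13 and limma adjusted p from 0.016 to 0.0274. The member median at the same time was -0.09, with 1 of 10 higher and 2 lower. At 4, 7, 14 and 42 dpi 0 genes of these 5 lists were called compared with sham animals. From 28 to 42 dpi Dpysl5 fell (-0.36, limma, adjusted p = 0.043) and Elavl4 rose (0.28, limma, adjusted p = 0.0248). For Dpysl5 the call was lost with the 18S covariate (-0.35, limma, adjusted p = 0.0606) and without the 3 animals (-0.27, limma, adjusted p = 0.646), and for Elavl4 without the 3 animals (0.23, limma, adjusted p = 0.58). Without the 3 animals with the high length slopes 0 genes of any of the 5 lists were called at 28 dpi, as were 0% of all genes, with 2 animals left at that time. The log2 fold changes of some genes were then as large or nearly so (Tubb4a 0.58, Dcx 0.50, Klf9 -0.36, Rarb -0.26) and those of others were smaller (Snap25 -0.08, Map1b 0.08). With the 18S covariate 0 genes of the lists and 0% of all genes were called at 28 dpi, at log2 fold changes of -0.47 for Stmn1, -0.63 for Marcksl1, 0.56 for Tubb4a and 0.49 for Dcx. With the length trend removed the 5 lists had 4 genes higher and 15 lower, against 7 higher and 12 lower without that step, and 23.5% of all genes were called. After rescaling all animals to 1 common sum, 0 genes of the 5 lists were called higher and 48 lower, where 66.2% of all genes were called, and the 6 named genes that rose had log2 fold changes of -0.53 to -0.28, all above the median of all genes (-0.73), and Dpysl2 was at -0.02 from 14 to 28 dpi, above a median of -0.22.

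The genes whose pattern over 29 animals was most like the mean z-score of the 10 members were Tppp3 (Pearson's r = 0.825), Slc25a1 (0.806), Mtap (0.801), Fxyd7 (0.80) and Sncg (0.796). Tppp3 encodes a tubulin-binding protein, Slc25a1 the mitochondrial citrate carrier, Mtap an enzyme of the methionine salvage pathway, Fxyd7 a regulator of the sodium pump and Sncg the γ-synuclein of neurons. These values describe likeness over animals that share groups and libraries. Some members ran against each other (Gap43 and Klf7, Pearson's r = -0.73 within groups), so their mean need not describe each member.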

How the data were processed

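RNA of single animals was sequenced after removal of ribosomal RNA (single end, 125 bases), with a kit that does not mark strand. The authors ran SALMON and Tximport against mouse transcripts (mm10), normalized the result with edgeR 3.14.0 under R 3.4.1 and removed genes of low expression. The deposited score is this normalized CPM, rounded to 0.1 by the authors. It is not a count, so count tests were not used and depth is unknown. Groups came from the labels, and 1 labelled animal at 4 dpi had no values used here.

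Values were analysed as log2(value + 0.5) with limma 3.58.1 (R 4.3.3, trend on the mean, 6 groups, 9 comparisons), with Benjamini-Hochberg adjustment over 16995 genes. The method was tested on simulated data in which each gene had its own independent spread. These data held no shift shared between genes, so that test does not cover calls under such a shift. Fold changes on this scale understate those of low genes. P-values measure the spread between animals. Exact permutation tests compared single genes, and relations used deviations from group means with 100000 permutations within groups (Python 3.11.15, scipy 1.17.1). Exon lengths, overlaps and shared 31-base words were taken from GENCODE M21.

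The members, lists and tests were chosen with earlier results of these data known. Named genes are all members, for each list the called genes with the smallest p (at most 4 per comparison), and the 5 genes most like the members. Atf3, Jun and the motor neuron relations were chosen after their values were seen. Alternatives were other scalings, pseudocounts of 1 and 0.05, a mean value of at least 1, no trend, robust fits, the unit number as a random block, the 18S covariate, removal of the length trend, fits of 2 groups, and leaving out each animal. The unit number was read from the sample titles and is nested in the groups except for number 3, so this block cannot separate unit from time. Leaving out 3 animals at 28 dpi was chosen after seeing the data.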

Additional observations from a re-analysis of the deposited data

Results flagged for a closer look

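A single animal stood apart from the rest of its group in 4 of 60 combinations of member and group (Dixon's test at the 95% level on the log2 scale), where chance gives about 1 in 20. Gap43 was lowest in animal A7-2 at 7 dpi (36.4 CPM, next 43.1). Sox11 was lowest in A8-3 at 7 dpi (3.9 CPM, next 5.7). At 4 dpi, with 4 animals, A10-1 had the lowest Crmp1 value (25.4 CPM, next 28.5) and the highest Klf7 value (33.2 CPM, next 26.2). The same animal had the highest Stmn2 value of all 29 animals.

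The step from 14 to 28 dpi differed by test for 7 members, while both times were compared with the same sham animals. The log2 differences were -0.72 for Gap43, -0.35 for Basp1 (-0.345), -0.51 for Stmn2, -0.32 for Stmn4 and -0.44 for Tubb3, and 0.24 for Dpysl2 and 0.41 for Klf7 (limma over all genes). The animals at 14 dpi had length slopes of -0.0562 to -0.0253, below those of all animals at 28 dpi. With the length trend removed, Gap43 (-0.52), Stmn2 (-0.55), Dpysl2 (0.26) and Klf7 (0.28) were still called, and Tubb3 (-0.26), Basp1 (-0.17) and Stmn4 (-0.14) were not.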

How the results depend on the processing

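At 28 dpi against sham animals, 3 members were called. The count was 9, all lower, after rescaling to the same sum (66.2% of all genes called), 0 with the 18S covariate (0% of all genes), 1 with the length trend removed (23.5%), 1 in a fit of only 2 groups (13%), 0 without the 3 animals with the high length slopes (0%), and 1 to 3 without 1 animal, where leaving out sham animal A12-1 or A12-3 or 28 dpi animal A3-3, A4-3 or A4-4 left 1. From 14 to 28 dpi the count of 7 was 1, 6, 4, 7 and 0 in the same order of alternatives (4.21%, 39.5%, 38.1%, 37.9% and 7.61% of all genes; without the 3 animals 2 were left at 28 dpi, and Stmn2 was at -0.38 and Tubb3 at -0.35), and 4 to 7 without 1 animal, with 4 without A4-3. With quantile normalization the counts were 3 and 5. At 28 dpi against sham animals Basp1 then lost its call (-0.37) and Crmp1 gained one (0.18), and from 14 to 28 dpi Basp1 and Stmn4 lost theirs. The 14 to 28 dpi call of Basp1 held in 5 of 12 alternatives and in 4 of 10 fits without 1 animal. Over the 6 groups the count of 4 was 9 with rescaling, 2 without the trend, 1 with the 18S covariate, 1 with the length trend removed, 0 without the 3 animals and 1 to 6 without 1 animal, with 1 without A4-3 and 2 without A6-2, A3-3 or A4-4. From 28 to 42 dpi it was 0 to 1 without 1 animal (1 without A3-1). The count was 0 at 4, 7, 14 and 42 dpi against sham animals and between 4, 7 and 14 dpi under all alternatives run. Pairs of members with a relation numbered 7, and 3 outside 28 dpi. Of 50 comparisons of a member with sham animals, 7 had an unadjusted limma p under 0.05 and 5 an exact permutation p under 0.05.

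Rescaling to the same sum reversed Dpysl2 (-0.69), Dpysl3 (-0.69), Crmp1 (-0.64), Klf7 (-0.46), Tubb4a (-0.28), Dpysl5 (-0.37), L1cam (-0.53), Dcx (-0.29), Map1b (-0.41) and Tsc2 (-0.48) at 28 dpi against sham animals and Dpysl2 (-0.0245) from 14 to 28 dpi. Of 2381 single values under an alternative, 157 lost their call and 6 gained one with the sign kept. A further 11, the reversals above, changed sign and were called in at least 1 of the fits compared. Another 133 that were never called changed sign. Causes beyond the construction of each alternative were not tested. No paired analysis was possible because the replicate names are unique to each animal. Depth is unknown, and 4 or 5 animals per group set the precision.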
